A study of Mus musculus with 12 samples.

Results

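PTPN22 and 9 other genes that restrain the B cell receptor were followed in B cells of mouse Peyer's patches (PP) after experimental stroke. The 10 genes are Ptpn22, Ptpn6, Csk, Lyn, Cd22, Cd72, Fcgr2b, Inpp5d, Siglecg and Pirb, and all 10 were found by symbol among the 36175 genes of the table. All are protein-coding, and all 10 reached the minimum of 1 in all mice that left 12590 genes to test. Ptpn22 was chosen by its difference between stroke mice and sham controls in these same libraries, so its difference is described here without a test. The other 9 were chosen for their known role with results of these data in view.

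RNA was sequenced from B cells of 12 male C57BL/6JHsd wild-type mice aged 10 to 12 weeks, 6 with sham surgery and 6 with ischemic brain injury (stroke mice), 18 h after the operation. The middle cerebral artery was occluded for a limited time in stroke mice, and the controls were operated on without ischemia. B cells were enriched by magnetic depletion followed by CD45 beads, and the methods say that the first step left some epithelial and endothelial cells and that the second was added to enrich B cells further, to a nearly pure preparation. Each mouse has 1 column of levels in normalized TPM, a unit that corrects for transcript length.

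The B cell receptor is restrained at several steps. Lyn, a Src-family kinase, phosphorylates both the activating motifs of the receptor and the inhibitory motifs (ITIMs) in the tails of coreceptors such as CD22. Phosphorylated ITIMs recruit the tyrosine phosphatase SHP-1, encoded by Ptpn6, or the lipid phosphatase SHIP-1, encoded by Inpp5d. Csk switches Src-family kinases off by phosphorylating their C-terminal tail. PTPN22, a cytosolic tyrosine phosphatase, binds Csk through a proline-rich motif and removes the activating phosphate of Src-family and Syk-family kinases. It is best known for restraining antigen receptor signals in lymphocytes and for its link to autoimmunity.

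Libraries differed in ways the groups do not explain. Column totals ranged from 559570 to 1404340 in sham controls and from 804983 to 1020759 in stroke mice, and the number of reads is unknown. Stroke mouse 5 held the highest or the lowest of the 12 values for 36.5% of the genes tested and sham control 6 for 34.9%, compared with 3.46% to 30.5% in the other mice. Differences are therefore also given without these mice where that moves them most. The labelled cell type was checked by its markers. All 7 B cell markers reached 1 in every mouse. The summed level of the 12 T cell markers was 312 to 593 in sham controls and 319 to 469 in stroke mice. The B cell markers summed to 1496 to 2655 over both groups. Most of the T cell sum was Thy1 (79.3 to 404), Cd2 (56.5 to 119) and Lck (32.6 to 54.1). No other T cell marker exceeded 46.3, the level of Cd3g in stroke mouse 1, and Cd3e was at 2.51 to 27.7 and Trac at 1.53 to 14.1. Epithelial markers varied widely, with sums from 35.4 to 1650 in sham controls and from 32.5 to 857 in stroke mice. In bulk RNA, a change in the share of a cell type and a change in RNA per cell cannot be told apart.

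The start regions of the 2 genes with the largest positive differences, Ptpn22 and Inpp5d, are printed because the comparison turns on them most. They are RefSeq promoter windows on GRCm38.p6, from 250 bases before to 50 bases after a start, on the + strand, and capitals mark motif matches on either strand.
Ptpn22, chr3:103859545-103859844: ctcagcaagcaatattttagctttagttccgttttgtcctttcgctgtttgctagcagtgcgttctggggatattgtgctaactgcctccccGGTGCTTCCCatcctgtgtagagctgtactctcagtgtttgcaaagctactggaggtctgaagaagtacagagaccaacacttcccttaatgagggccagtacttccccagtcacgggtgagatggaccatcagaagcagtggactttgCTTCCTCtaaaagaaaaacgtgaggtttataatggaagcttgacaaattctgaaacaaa
Inpp5d, chr1:87620062-87620361: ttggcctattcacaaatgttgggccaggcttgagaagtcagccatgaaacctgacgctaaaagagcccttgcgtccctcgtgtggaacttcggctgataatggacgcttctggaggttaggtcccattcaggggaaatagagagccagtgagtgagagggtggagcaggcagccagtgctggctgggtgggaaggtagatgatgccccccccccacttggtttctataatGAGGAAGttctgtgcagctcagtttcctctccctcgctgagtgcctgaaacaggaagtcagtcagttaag

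The motifs searched were GAGGAAG (PU.1), GGG and CC with any 5 bases between them (kappaB), GTAAACA (FOXO), TGANTCA (AP-1) and TGACGTCA (CRE). In the printed windows, Inpp5d holds 1 GAGGAAG match, and Ptpn22 holds 1 GAGGAAG match and 1 kappaB match, both on the reverse strand and not overlapping. RefSeq lists a second start of Ptpn22, and the window around it has none of the 5 motifs. Windows were found for 9 of the 10 genes, all but Lyn, and GAGGAAG occurs in 6 of their 12 windows compared with 13.6% of 32851 promoter windows of the same length. Ptpn22, Siglecg and Csk have a second window each, and those of Siglecg overlap. The 12 windows are therefore not independent, and no share was tested. The kappaB letters also occur in 6 of the 12 windows, compared with 50.8% of all, and FOXO, AP-1 and CRE letters in 0 of the 12, compared with 3.65%, 7.81% and 1.79% of all. A match of letters is a description and does not show that a factor binds.

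Ptpn22 was several-fold higher in stroke mice. The gene lies on chromosome 3 from 103859795 to 103912247 on the + strand of GRCm38. Its level was 77.7, 29.9, 37.7, 57.0, 19.2 and 40.4 in sham controls 1 to 6, whereas stroke mice 1 to 6 had 119, 88.4, 137, 182, 324 and 87.2. All 6 stroke mice lay above all 6 sham controls, the nearest pair being stroke mouse 6 and sham control 1. The stroke mean was 3.58-fold higher, at 156 ± 89.2 (SD, n = 6) against 43.7 ± 20.8 (SD, n = 6), and the log2 difference was 1.80 (standard error 0.36). The mean of the other 5 stroke mice without mouse 5 was 123 ± 39.2 (SD, n = 5), with a log2 difference of 1.56. Of all genes tested, 0.437% had groups that did not overlap, and Ptpn22 was the only one of the 10. Because the gene was picked on this contrast, nothing is read from that count.

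**Figure D1:**
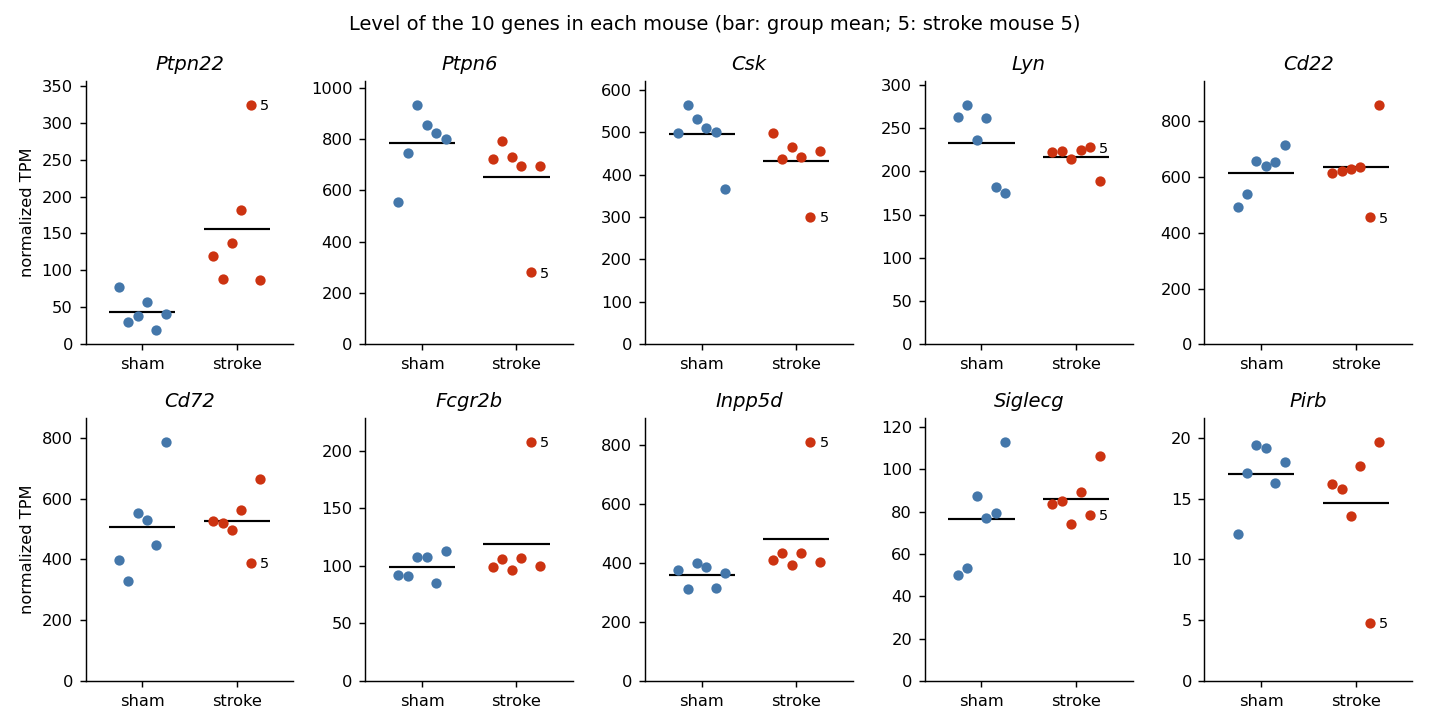
Normalized TPM of each of the 10 genes (y axis, from 0) in 6 sham controls (blue) and 6 stroke mice (red), 1 point a mouse in the order of the mouse numbers, with bars at the group means and stroke mouse 5 marked. Ptpn22 is the only gene whose groups do not overlap, from 19.2 to 77.7 in sham controls and from 87.2 to 324 in stroke mice.

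Ptpn22 was also set against genes that its protein works with or resembles, as a ratio in each mouse. These ratios use the same Ptpn22 values, so they describe that difference again and give no separate support for it. Relative to Csk, its binding partner, Ptpn22 was at 3.84% to 15.6% in sham controls and at 19.2% to 108% in stroke mice. The highest value was that of stroke mouse 5, and the next highest was 41.2%. Relative to Ptpn6, the other tyrosine phosphatase of the group, it was at 2.33% to 14.0% in sham controls and at 11.1% to 115% in stroke mice, and here the ranges overlapped, since sham control 1 lay above stroke mice 2 and 6. The family of PEST-type phosphatases holds 2 further members. Ptpn12, the widely expressed relative PTP-PEST, had means of 22.4 ± 5.08 (sham, SD, n = 6) and 19.2 ± 3.12 (stroke, SD, n = 6) and a log2 difference of -0.20 (limma adjusted p = 0.836). It was -0.32 without sham control 6, where the unadjusted p was under 0.05, -0.12 without sham control 2, and -0.13 without stroke mouse 5. Ptpn18 was at 141 ± 20.0 (SD, n = 6) and 138 ± 18.7 (SD, n = 6), with a log2 difference of -0.03 (limma adjusted p = 0.965) that turned to 0.10 when each mouse was rescaled to the same total. Ptpn22 was at 15.3% to 59.2% of Ptpn18 in sham controls and at 60.1% to 296% in stroke mice.

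**Figure D2:**
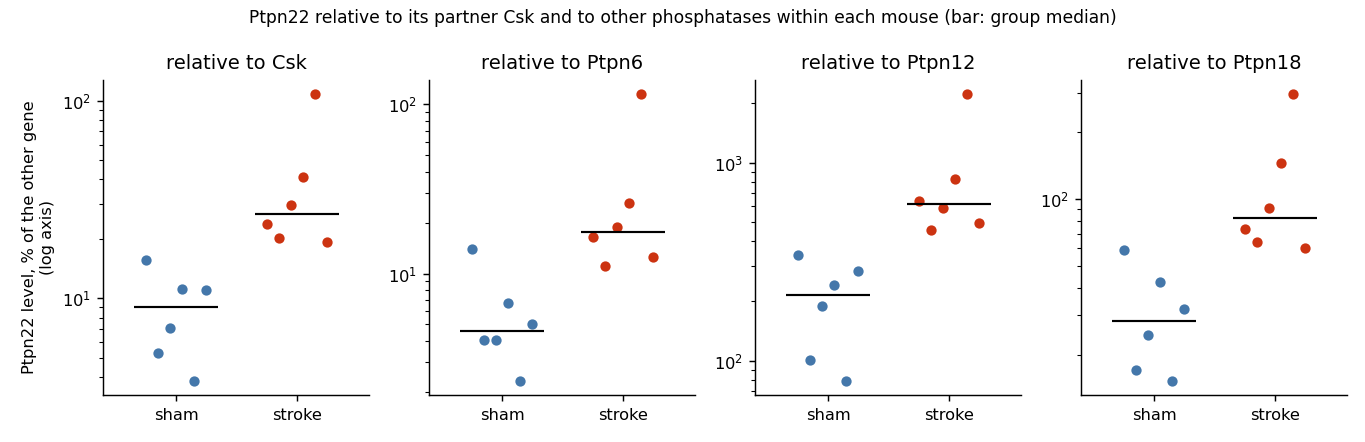
Ptpn22 as a percentage of Csk, Ptpn6, Ptpn12 and Ptpn18 in the same mouse (log axis), for sham controls (blue) and stroke mice (red), with bars at the group medians. The median relative to Csk was 9.05% in sham controls and 26.7% in stroke mice, and the groups overlap only in the panel for Ptpn6.

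Among the other 9 genes, the differences were small beside that of Ptpn22. In the fit of all genes, 1 of the 9 had an unadjusted p under 0.05 (Inpp5d, higher), compared with 6.12% of all 12590 genes, of which 4.42% were higher and 1.69% lower in stroke mice. With 9 genes, a count of 1 is near that background and says nothing particular about them. After Benjamini-Hochberg adjustment over all genes, 0% of the genes tested and none of the 9 passed 0.05 (limma), against 770 genes at an unadjusted p under 0.05. The median log2 difference of the 9 genes was 0.03, compared with 0.01 over all genes, and 5 were higher and 4 lower.

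Inpp5d, on chromosome 1 from 87620312 to 87720507, encodes SHIP-1, which removes a phosphate from the lipid messenger that recruits Btk and Akt to the membrane. It was at 375, 313, 399, 385, 316 and 366 in sham controls 1 to 6 and at 410, 433, 395, 434, 812 and 402 in stroke mice 1 to 6. In 5 of 6 stroke mice the value lay above every sham control, and stroke mouse 3 lay just below sham control 3. The means were 359 ± 36.3 (SD, n = 6) and 481 ± 163 (SD, n = 6), and the log2 difference was 0.38 (standard error 0.17, limma adjusted p = 0.791). Stroke mouse 5 carried much of this difference. Without it, the stroke mean was 415 (n = 5), the log2 difference was 0.21 (standard error 0.10, limma adjusted p = 0.999), and the unadjusted p was no longer under 0.05.

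Ptpn6, on chromosome 6 from 124720707 to 124738714, was the most abundant of the 10 genes in every sham control. Its level was 555, 744, 933, 853, 825 and 799 in sham controls 1 to 6 and, in stroke mice 1 to 6, 721, 793, 729, 695, 281 and 696. Stroke mouse 5 was far below all other mice, and the remaining 5 stroke mice lay within the range of the sham controls. The log2 difference was -0.32 (95% interval -0.83 to 0.18, limma adjusted p = 0.817), and -0.09 without stroke mouse 5.

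Inpp5d as a percentage of Ptpn6 sets the lipid phosphatase against the tyrosine phosphatase within a mouse. It was at 38.3% to 67.6% in sham controls, with a median of 43.9%, and at 54.1% to 289% in stroke mice, with a median of 57.3%. All stroke mice lay above 5 of the sham controls, sham control 1 being the exception, and without stroke mouse 5 the highest stroke value was 62.4%.

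The kinase pair Csk and Lyn showed little difference. Csk, on chromosome 9 from 57626646 to 57653631, was at 498, 564, 531, 510, 501 and 367 in sham controls 1 to 6 and at 498, 436, 465, 442, 300 and 455 in stroke mice 1 to 6. A low value stood apart in each group, in sham control 6 and in stroke mouse 5. Its log2 difference was -0.20 (95% interval -0.51 to 0.11, limma adjusted p = 0.815), -0.10 without stroke mouse 5 and -0.28 without sham control 6. Only 1 of 6 stroke mice was above the sham mean.

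Lyn, on chromosome 4 from 3678115 to 3813122, was at 263, 277, 237, 262, 182 and 175 in sham controls 1 to 6 and at 222, 224, 214, 225, 228 and 189 in stroke mice 1 to 6. Every stroke value fell inside the sham range. The SD was 44.0 (n = 6) in sham controls and 14.6 (n = 6) in stroke mice, and the log2 difference was -0.08 (95% interval -0.37 to 0.21, limma adjusted p = 0.911). It was -0.16 without sham control 6 and -0.02 without sham control 2, and with each mouse rescaled to the same total it was 0.05. Csk as a percentage of Lyn had a median of 207% in both groups.

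The receptors with ITIMs overlapped between the groups. Cd22, on chromosome 7 from 30865402 to 30880342, encodes a lectin that binds sialic acid on the B cell surface. It was at 492, 538, 657, 639, 653 and 717 in sham controls 1 to 6 and at 615, 621, 629, 635, 456 and 859 in stroke mice 1 to 6. Stroke mice held both the lowest and the highest of the 12 values. The log2 difference was 0.03 (95% interval -0.29 to 0.36, limma adjusted p = 0.965), and it was negative when sham control 1, sham control 2 or stroke mouse 6 was left out.

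Siglecg, on chromosome 7 from 43408204 to 43418358, encodes the related lectin Siglec-G, which is best known from B-1 cells. Its values ran from 50.1 to 113 with a median of 78.0 in sham controls and from 73.9 to 106 with a median of 84.3 in stroke mice. The highest and the lowest values were both in sham controls, in mice 6 and 1. The log2 difference was 0.21 (95% interval -0.19 to 0.61, limma adjusted p = 0.845). Single sham controls moved it, to 0.10 without mouse 1, 0.12 without mouse 2 and 0.33 without mouse 6.

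Cd72, on chromosome 4 from 43446462 to 43454628, encodes a C-type lectin that recruits SHP-1. It ran from 329 to 787 with a median of 487 in sham controls and from 388 to 664 with a median of 522 in stroke mice. The sham range contained every stroke mouse, and the log2 difference was 0.09 (95% interval -0.33 to 0.51, limma adjusted p = 0.931). It was 0.23 without sham control 6 and -0.02 without sham control 2.

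Fcgr2b, on chromosome 1 from 170958617 to 170976547, encodes the inhibitory Fc receptor that binds IgG complexes and recruits SHIP-1. It was at 91.7, 91.0, 108, 108, 84.7 and 113 in sham controls 1 to 6 and at 98.6, 106, 96.1, 107, 208 and 100 in stroke mice 1 to 6. All stroke mice but mouse 5 lay within the sham range. The log2 difference was 0.21 (95% interval -0.18 to 0.60, limma adjusted p = 0.839), and 0.04 without stroke mouse 5.

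Pirb, on chromosome 7 from 3711409 to 3720391, encodes the paired immunoglobulin-like receptor B, which is found on B cells and myeloid cells. It was the least abundant of the 10, at 12.1 to 19.4 in sham controls and at 4.78 to 19.7 in stroke mice, the lowest value being that of stroke mouse 5. The log2 difference was -0.31 (95% interval -0.91 to 0.29, limma adjusted p = 0.846), and -0.03 without that mouse. Pirb is similar in sequence to the neighbouring Pira genes, so its share of reads is uncertain.

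**Figure D3:**
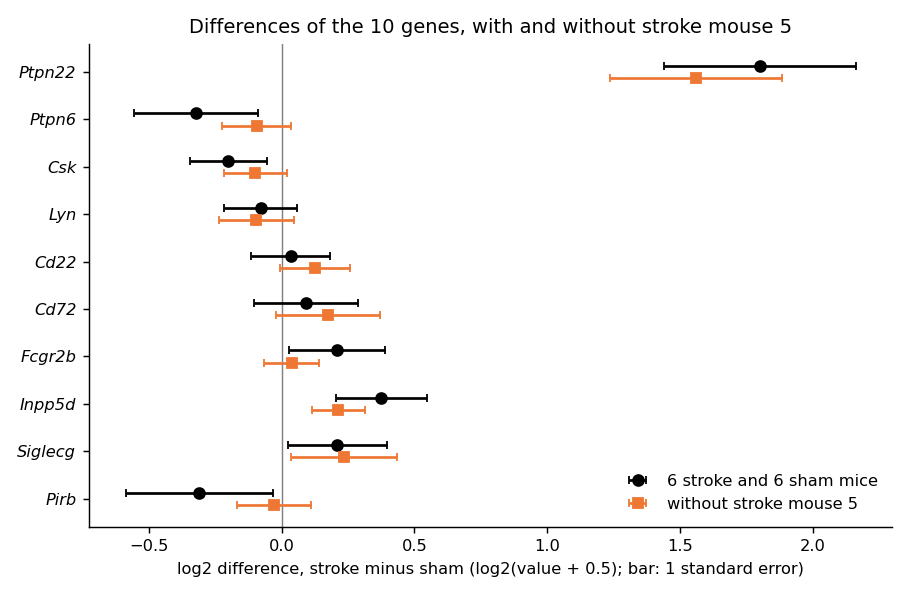
Log2 difference between stroke mice and sham controls for each gene (x axis, on the scale of log2(value + 0.5)), with bars of 1 standard error, for all 12 mice (black) and without stroke mouse 5 (orange). Ptpn22 stands at 1.80 and 1.56, and the other 9 genes lie between -0.32 and 0.38 with all mice.

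The order of the 10 levels differed between the groups at Ptpn22 and at Inpp5d. In sham controls the means fell from Ptpn6 (785) through Cd22 (616), Cd72 (507), Csk (495), Inpp5d (359), Lyn (233), Fcgr2b (99.4), Siglecg (76.7) and Ptpn22 (43.7) to Pirb (17.0) in normalized TPM, which corrects for length. Cd72 and Csk were not distinguishable, since Cd72 was the higher in 3 of 6 sham controls, and Siglecg lay above Ptpn22 in 5 of 6. In stroke mice, Siglecg lay above Ptpn22 in 1 of 6, and the mean of Ptpn22 (156) lay above those of Fcgr2b (119) and Siglecg (85.9). The mean of Inpp5d (481) lay above that of Csk (432), but Csk was the higher in 5 of 6 stroke mice, all but mouse 5. In that mouse Inpp5d had the highest level of the 10 genes, and Ptpn22 lay above Csk, Ptpn6 and Lyn.

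Stroke mouse 5 stood apart in both directions. Of all 12 mice it had the highest level of Ptpn22, Inpp5d and Fcgr2b and the lowest of Ptpn6, Csk, Cd22 and Pirb. Its B cell marker sum of 1496 was also the lowest, compared with 2143 to 2655 in the other mice, and its follicular B cell marker sum of 525 compared with 920 to 1502. The part of these differences in the values of the 10 genes was not tested.

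Other inhibitors of the receptor were described from lists of known regulators. Of 12 further inhibitory receptors and related proteins, 10 were tested. At an unadjusted p under 0.05, 1 was higher and 1 lower in stroke mice, with none past the adjusted threshold (limma). The shares over all genes were 4.42% higher and 1.69% lower, and they are the background for each of the lists that follow, whose counts were not tested against it. The median log2 difference was 0.03, compared with 0.01 over all genes, and without stroke mouse 5 it was 0.12, compared with 0.02. Btla, an inhibitory receptor for HVEM, was at 151 ± 18.9 (SD, n = 6) and 234 ± 84.0 (SD, n = 6), with a log2 difference of 0.58 (limma adjusted p = 0.716) and of 0.41 without stroke mouse 5. It was at 124 to 181 in sham controls and at 176 to 398 in stroke mice, so that only stroke mouse 2 fell inside the sham range. Ceacam1, an ITIM receptor that epithelial cells also express, was the lower gene, with a log2 difference of -0.67 (limma adjusted p = 0.791). It was -0.41 without sham control 2 and -0.51 without stroke mouse 5, and neither passed an unadjusted p of 0.05. Its highest levels, 106 and 52.9, were in sham controls 2 and 1, where the epithelial marker sums were also the highest, at 1634 and 1650. The part of epithelial RNA in this difference was not tested. Fcrla, a related protein rather than a receptor and the other most abundant gene of the list, had a log2 difference of -0.39 (limma adjusted p = 0.791).

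Of 25 further cytosolic inhibitors, 24 were tested. Inppl1, which encodes the SHIP-1 relative SHIP2, Dgka, a kinase that removes diacylglycerol, and Sit1, an adaptor that binds SHP phosphatases, were higher at an unadjusted p under 0.05, with log2 differences of 0.49, 0.33 and 0.47 (limma, adjusted p = 0.791 for each). None was lower, and the median log2 difference was -0.03, which turned to 0.02 without stroke mouse 5. Without that mouse, 0 genes of this list were higher and 2 lower, Cblb and Bank1, compared with 436 higher and 156 lower of the 12590 genes tested. Bank1, a B cell scaffold, was at 321 to 405 in sham controls and at 64.2 to 323 in stroke mice, the lowest value being that of stroke mouse 5. Grap, an adaptor and the most abundant gene of the list, was at 360 ± 52.1 (SD, n = 6) and 404 ± 49.4 (SD, n = 6), with a log2 difference of 0.17 (limma adjusted p = 0.822). This difference ranged from 0.09 to 0.22 with single mice left out and from 0.14 to 0.30 in the other settings tried.

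The receptor complex and its activators included a kinase that PTPN22 opposes. Of 27 genes tested, 1 was higher and 3 lower at an unadjusted p under 0.05 (limma, none after adjustment), 7 had a positive and 20 a negative log2 difference, compared with 6466 and 6124 over all genes, and the median was -0.19. Signs depend on scaling, since equal totals moved the median of all genes from 0.01 to 0.13. Without stroke mouse 5, 1 was higher and 2 lower, and the median was -0.10, while over all genes tested 436 were higher and 156 lower. Without both that mouse and sham control 6, an exclusion chosen after seeing the data, 1 was higher and 8 lower, while over all genes tested the lower count went from 213 to 813 and the higher count from 557 to 817. Syk, the kinase that binds the phosphorylated receptor, was at 244, 255, 251, 272, 240 and 212 in sham controls 1 to 6 and at 296, 272, 311, 313, 492 and 284 in stroke mice 1 to 6. The groups did not overlap, although stroke mouse 2 and sham control 4 were nearly equal. The log2 difference of Syk was 0.39 (standard error 0.14, limma adjusted p = 0.748), and 0.27 without stroke mouse 5.

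The lower genes of the list were Cr2, Ptprc and Bcl10. Cr2, the complement receptor that lowers the threshold of the B cell receptor, was at 212 to 294 in sham controls and at 47.1 to 213 in stroke mice. Its log2 difference was -0.83 (limma adjusted p = 0.748), and -0.51 without stroke mouse 5. With equal totals it was -0.70, where the unadjusted p was no longer under 0.05. Ptprc encodes CD45, the phosphatase that activates Src-family kinases by removing the phosphate that Csk adds, and CD45 beads were used to purify the cells. It had a log2 difference of -0.33 (limma adjusted p = 0.753), or -0.20 both with equal totals and after quantile normalization, where the unadjusted p was no longer under 0.05. Bcl10, a signalling adaptor towards NF-kB, had a log2 difference of -0.28 (limma adjusted p = 0.791). It was -0.16 with equal totals, and its unadjusted p was no longer under 0.05 there or without any of sham controls 1 to 4 or stroke mice 4 and 5. Cd79a, a chain of the receptor itself and highly abundant, was at 506 ± 158 (SD, n = 6) and 418 ± 124 (SD, n = 6), with a log2 difference of -0.26 (limma adjusted p = 0.859). It was -0.09 without stroke mouse 5 and -0.45 without sham control 6.

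Genes that respond to receptor signals were also described. Of 17 such genes, 11 were tested, and 2 were lower and none higher at an unadjusted p under 0.05 (limma, none after adjustment). A negative log2 difference was found in 9 of the 11, compared with 6124 of 12590 over all genes. The median was -0.28, or -0.15 without stroke mouse 5. The genes too low to test went both ways. Stroke means were 3.92, 2.31 and 1.95 times the sham means for Spry1, Nr4a2 and Ccl3. They were 0.576, 0.659 and 0.561 times the sham means for Nr4a3, Fosb and Ccl4. Egr3, an early response transcription factor, and Cd83, a surface marker of activated B cells, had log2 differences of -0.68 and -0.69 (limma adjusted p = 0.791 for each). Without stroke mouse 5, 0 genes of this list passed an unadjusted p under 0.05 (limma), and the differences of Egr3 and Cd83 were -0.46 and -0.39. Over all 12590 genes tested, 592 passed without that mouse and 770 with all mice. Without both that mouse and sham control 6, 4 were lower and the median was -0.39, beside the same wider rise in lower calls over all genes, from 213 to 813. Dusp2, a phosphatase of MAP kinases and the most abundant of the list after Cd83, had a log2 difference of -0.02 (limma adjusted p = 0.976), with a positive sign when each mouse was rescaled to the same total or when stroke mouse 5 was left out.

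**Figure D4:**
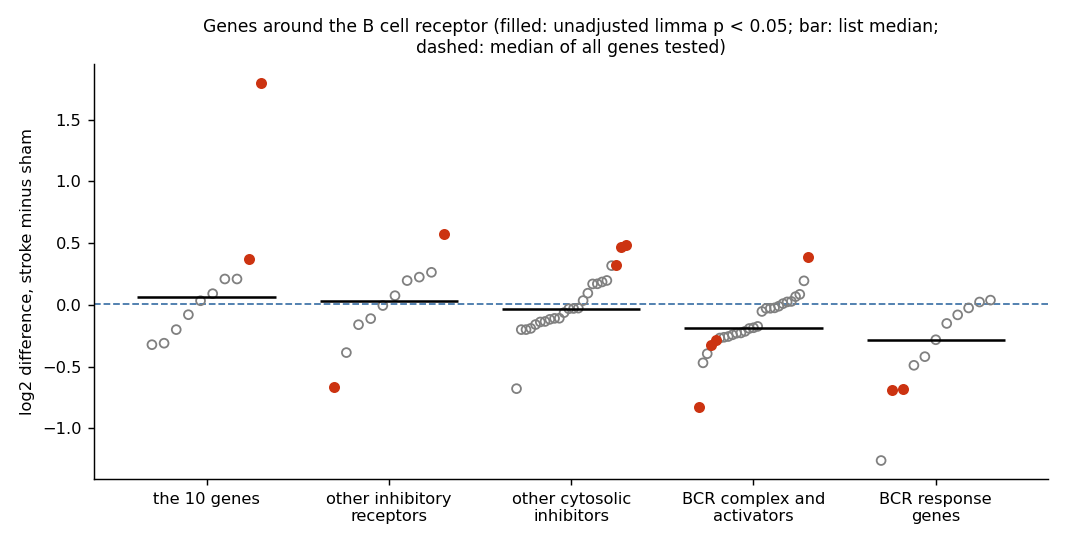
Log2 difference between stroke mice and sham controls (y axis) for the tested genes of 5 lists, 1 point a gene, filled where the unadjusted limma p was under 0.05, with bars at list medians and a dashed line at the median of all genes tested (0.01). Ptpn22 is the highest point, at 1.80, and its fill is not read as a test because the gene was picked on this contrast. The medians of activators and response genes lie at -0.19 and -0.28, or at -0.10 and -0.15 without stroke mouse 5, which the plot includes.

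Ptpn22 is also abundant in T cells, so its level was set beside markers of other cells. The T cell marker score, the mean log2 value of 12 genes, had a mean of 3.67 ± 0.35 (sham, SD, n = 6) and of 3.73 ± 0.46 (stroke, SD, n = 6) (exact two-sided permutation test, p = 0.788, adjusted p = 0.963 over 11 lists). The stroke mice with the most Ptpn22, mice 4 and 5, had the lowest T cell scores of their group, 3.06 and 3.31. The single markers went both ways in these mice. Cd3e and Trac, chains of the T cell receptor complex, were below every sham control, at 2.51 and 4.26 for Cd3e and at 1.53 and 2.16 for Trac. Thy1, at 165 and 285, was above all sham controls but mouse 6, and Cd247, at 14.2 in stroke mouse 5, was above every sham control. The summed level of the 12 markers was the lowest of the stroke mice in mouse 4, at 319, and the second highest in mouse 5, at 437. In sham controls, mouse 1 had the highest and mouse 5 the lowest level of both Ptpn22 and the T cell score. With the T cell score as a covariate, the log2 difference of Ptpn22 was 1.81.

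Myeloid cells express Pirb, Fcgr2b and Inpp5d, and 11 of the 12 myeloid markers were above 0 in every mouse. Their summed level was 52.0 to 390 in sham controls and 59.4 to 216 in stroke mice. The myeloid score was 2.43 ± 0.64 (SD, n = 6) and 2.40 ± 0.44 (SD, n = 6) (exact two-sided permutation test, p = 0.920, adjusted p = 0.965), and with it as a covariate the log2 difference of Ptpn22 was 1.80 and that of Inpp5d 0.37. The germinal centre B cell score was highest in sham control 5 and stroke mouse 3, at 5.73 in both, where Ptpn22 was at 19.2 and 137. None of the 11 marker scores differed between the groups at an exact permutation p under 0.05, the smallest being 0.0996 for follicular B cells.

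**Figure D5:**
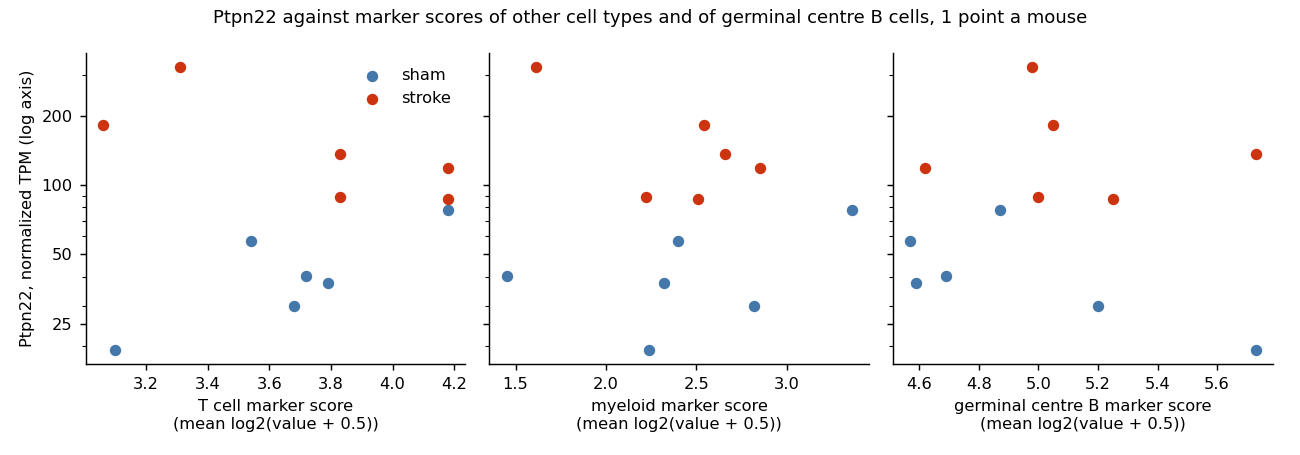
Ptpn22 in normalized TPM (log axis) against the T cell, myeloid and germinal centre B cell marker scores (mean log2 value), 1 point a mouse, sham controls in blue and stroke mice in red. All 6 stroke mice lie above all 6 sham controls, and stroke mice 4 and 5 combine T cell scores of 3.06 and 3.31 with the 2 highest Ptpn22 levels, whereas among sham controls mouse 1 is highest and mouse 5 lowest in both.

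The genes whose pattern over the 12 mice was most like that of Ptpn22 were Pik3ip1 (Pearson r = 0.958), Sesn1 (r = 0.939), Fkbp5 (r = 0.938), Zfp1 (r = 0.924) and Tbc1d9 (r = 0.923), on log2 values. Pik3ip1, which encodes an inhibitor of PI3 kinase, was at 41.9 in sham controls and 131 in stroke mice on average. Sesn1, a sestrin, had means of 36.3 and 104, and Fkbp5, a cochaperone of steroid receptors, of 42.3 and 127. All 12 values come from the same libraries, and part of the likeness is the group difference itself. For deviations from the group means, which leave that difference out, Pik3ip1 was again first (r = 0.925), followed by 1110059E24Rik, Zfp507, Gm15547 and Tspan14 (r from 0.916 to 0.885). Without stroke mouse 5, r for Pik3ip1 was 0.941 for values and 0.883 for deviations.

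Among the other 9 genes, the deviations of Inpp5d were the most similar to those of Ptpn22, with r = 0.736 over 12 mice and r = 0.613 without stroke mouse 5. Those of Ptpn6 were the most opposed, with r = -0.712 and -0.505. The values for Fcgr2b were 0.652 and 0.333, and for Csk -0.483 and -0.0785, so both were closer to 0 without that mouse.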

How the data were processed

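The sources name FastQC, Trimmomatic 0.39, kallisto 0.48.0 and sleuth 0.30.0 in R 4.1.2 for the authors' processing, with transcripts of GRCm38. Per gene, the deposited table gives a signal labelled as normalized TPM. Column totals differ between mice, so the values are not plain TPM as first assumed, and the planned test on a log scale was kept. The table holds no counts, so depth and counting error are unknown. A single column per mouse was used.

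Here, log2(value + 0.5) was tested with limma 3.58.1 in R 4.3.3 between 6 stroke and 6 sham mice for the 12590 genes that reached 1 in all mice, with Benjamini-Hochberg adjustment. This scale understates changes of low genes. The fit was tested on simulated data. Marker scores were compared by exact two-sided permutation tests over 924 assignments. Coordinates come from GENCODE M21 (GRCm38), in which 35869 gene identifiers were found.

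The members and lists were chosen with earlier results of these data known. Named are all members, list genes with p under 0.05 or groups that do not overlap, the 2 most abundant genes per list, the PEST family, and the 5 genes most correlated with Ptpn22 per measure. Each library came from a separate mouse. Alternatives were other pseudocounts, filters and scalings, quantile normalization, an intensity trend, quality weights, a replicate block, marker covariates and leaving out mice.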

Additional observations from a re-analysis of the deposited data

Results flagged for a closer look

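Of 78 groups of 6 values examined, 15 had a value whose gap to the nearest mouse exceeded Dixon's 95% critical value, where chance alone flags about 1 group in 20. Of these, 10 came from stroke mouse 5. In that mouse, Inpp5d (812), Fcgr2b (208), Btla (398) and Syk (492) were far above the other stroke mice, and Ptpn6 (281), Csk (300), Cr2 (47.1), Ptprc (329), Bank1 (64.2) and the B cell marker score (7.69) were far below them. The other values that stood apart were Csk (367) and Bcl10 (38.8), low in sham control 6, Lyn (189), low in stroke mouse 6, Ceacam1 (106), high in sham control 2, and the dendritic cell marker score (2.51), high in sham control 1. Ptpn22 had no such value in either group, although stroke mouse 5 was its highest, at 324, and the next stroke mouse was at 182. The cause of these values was not tested.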

How the results depend on the processing

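The log2 difference of Ptpn22 kept its sign in all 26 alternatives, from 1.57 to 1.93, and from 1.56 to 1.99 with single mice left out. That of Inpp5d stayed positive, and its unadjusted p was under 0.05 in 10 of 26. Of the 9 genes other than Ptpn22, those at an unadjusted p under 0.05 (1 as reported) numbered 0 with the mean filter, total, median-of-ratios and quantile scaling, the intensity trend, quality weights, the replicate block, and without both sham control 6 and stroke mouse 5 (chosen after seeing the data), and 0 to 1 with a mouse left out.

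Over all genes, 557 were higher and 213 lower. The higher count was 369 with a minimum of 5, 1418 and 350 lower without a filter, 348 and 69 with equal totals, which moved the median of all genes to 0.13, and 866 and 703 with quality weights. The lower count was 327 after quantile normalization, 404 with the replicate block, 502 with the myeloid covariate and 813 without both mice. With a mouse left out, the counts ranged from 396 to 937 higher and from 144 to 1158 lower, both upper ends without sham control 6. The count at an adjusted p under 0.05 was 1 with the mean filter and 0 to 1 with a mouse left out. Called list genes (11 as reported) numbered 5 with equal totals, 20 without both mice, and 5 to 20 with a mouse left out (20 without sham control 6). Marker lists past 0.05 numbered 1 after quantile normalization and 0 to 1 with a mouse left out.

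Signs reversed with equal totals for Lyn (0.0474), Ptpn18 (0.0974), Dusp2 (0.102) and the myeloid score (0.0773), with quality weights for Dusp2 (0.00166), and without both mice for Ptpn18 (0.0066). With a mouse left out, differences ranged across 0 for Cd22 (-0.0578 to 0.125), Cd72 (-0.0218 to 0.23), Ptpn18 (-0.0761 to 0.0365), Dusp2 (-0.121 to 0.0335), the T cell score (-0.0531 to 0.194) and the myeloid score (-0.231 to 0.15). The causes were not tested. Same-numbered mice had a mean correlation of deviations of 0.218, compared with -0.0414 for the other pairs. The correlation was over 0.1 in 4 of 6 same-numbered pairs, and 2 of 6 sham controls correlated best with their own number. Same-numbered mice were thus more alike on average, for a reason that was not tested. The meaning of a shared number is unknown, so the main fit left the numbers out and the replicate block served as an alternative. That block gave 770 higher and 404 lower genes, compared with 557 and 213 as reported. With the replicate block, the unadjusted p of Inpp5d was no longer under 0.05. Depth is unknown, so its limit on these values cannot be given.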
